A study of Mus musculus with 24 samples.

Results

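The genes described here are Pde2a, the host gene that carries the microRNA miR-139 in an intron, and 7 genes reported elsewhere as targets of miR-139: Rap1b, Igf1r, Rock2, Cxcr4, Zeb1, Zeb2 and Notch1. They were chosen by name, by a rule that uses no measured value, but with earlier results of these data known. They are 8 of the 55487 gene IDs counted. All 8 symbols matched 1 ID each. RNA was sequenced from 24 libraries of mouse hematopoietic stem cells (HSCs), the rare marrow cells from which every blood lineage descends, after sorting into lysis buffer. The libraries form 3 experiments, each with a control of its own. Cells with knockdown of miR-139 (miR139-KD, n = 6) were set against a non-target control (NTC, n = 6). Cells overexpressing the pseudouridine synthase PUS10 (PUS10-OE, n = 3) were set against Vector (n = 3), and libraries labelled Pus10-KO (n = 3) against Pus10-WT (n = 3). The labels give no strain, age or sex, do not say how the knockdown or the overexpression was made or whether it took place in culture or in mice, and do not give the number of animals behind each group. The p-values therefore rest on differences among libraries that may be in part technical.

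A microRNA is a short RNA, cut from a hairpin precursor, that guides Argonaute proteins to messenger RNAs, most often through pairing of its seed (bases 2 to 8) with the 3′ untranslated region (UTR). Paired messages are usually destabilised or translated less, and part of that repression does not show in RNA levels. The reported targets belong to pathways that stem cells use for adhesion, migration, growth and fate: Rap1b is a small GTPase of integrin activation, Igf1r the receptor for insulin-like growth factors, Rock2 a kinase of the actomyosin cytoskeleton, and Cxcr4 the receptor for the chemokine Cxcl12 that holds HSCs in the marrow. Zeb1 and Zeb2 are zinc finger transcriptional repressors that promote the epithelial-mesenchymal transition and have roles in blood cell differentiation. Notch1 is a receptor best known in blood for committing progenitors to the T cell lineage. Pde2a hydrolyses cyclic AMP and cyclic GMP.

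Both mature strands of miR-139 are encoded on the plus strand of chromosome 7, at chr7:101475382-101475403 for miR-139-5p and chr7:101475418-101475439 for miR-139-3p (RefSeq, GRCm38.p6). They are shown because their seeds, in capitals, define the sites searched for below. The seeds of the 2 strands differ from each other.
miR-139-5p: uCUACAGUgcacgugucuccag
miR-139-3p: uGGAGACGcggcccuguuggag

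In the longest annotated 3′ UTR of each gene (GENCODE M21, GRCm38), 6 of the 8 genes held at least 1 match to the miR-139-5p seed, read on the transcript strand. The motifs were ACTGTAG (7mer-m8, pairing with the whole seed), CTGTAGA (7mer-A1, pairing with bases 2 to 7, with an A opposite base 1) and ACTGTAGA (8mer, both at once, counted as 1 site). Of all 21037 genes with such a UTR, 19.5% held a 7mer or 8mer and 3.71% an 8mer. The targets were chosen because they were reported as such, so these shares make no independent test of their matches. The sites are printed 5′ to 3′ with the matched bases in capitals, because the genes differ in how many they hold and of which kind.
Rap1b (7mer-A1, chr10:117814983-117815006, minus strand): ttttcaggcttctgcagCTGTAGA
Igf1r (8mer, chr7:68228981-68229004, plus strand): gatacctgttttaatcACTGTAGA
Igf1r (7mer-m8, chr7:68230170-68230193, plus strand): cagggttttcttctacACTGTAGg
Cxcr4 (8mer, chr1:128588569-128588592, minus strand): tttatctgtgtgtaggACTGTAGA
Cxcr4 (8mer, chr1:128588561-128588584, minus strand): tgtgtaggactgtagaACTGTAGA
Zeb2 (7mer-A1, chr2:44988458-44988481, minus strand): ctgacgcttccaggaagCTGTAGA
Zeb2 (7mer-m8, chr2:44987538-44987561, minus strand): attttatttatttcatACTGTAGt
Zeb2 (7mer-m8, chr2:44986657-44986680, minus strand): actttttgaaatgcagACTGTAGc
Zeb2 (7mer-m8, chr2:44985196-44985219, minus strand): cttttttgcacatgacACTGTAGg
Notch1 (7mer-m8, chr2:26457990-26458013, minus strand): aaaaactacatgcaaaACTGTAGg

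The 2 Cxcr4 sites abut, at bases 267 and 275 of a UTR of 644 bases, and 9.88% of the 2520 UTRs of like length (within a factor of 1.25) held any 7mer or 8mer. Zeb1 held 2 sites, a 7mer-m8 at base 1335 and an 8mer at base 1476 of 2401 bases. Zeb2 held the most, 4, in 4941 bases, where 58.0% of like UTRs held at least 1. Igf1r held 2 in 7267 bases, a length at which 69.6% of UTRs held 1. Rap1b and Notch1 each held 1, and 29.8% and 25.1% of UTRs of their length did. The longest UTR of Rock2 had 0 sites, but a shorter annotated transcript had a 7mer-m8 at base 656 of 2214, which brings the count to 7 of 8 genes when any transcript may hold the site. Pde2a had 0 sites for miR-139-5p and 1 7mer-A1 for miR-139-3p. A match is a description of the letters in these windows and not evidence of binding.

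**Figure D1:**
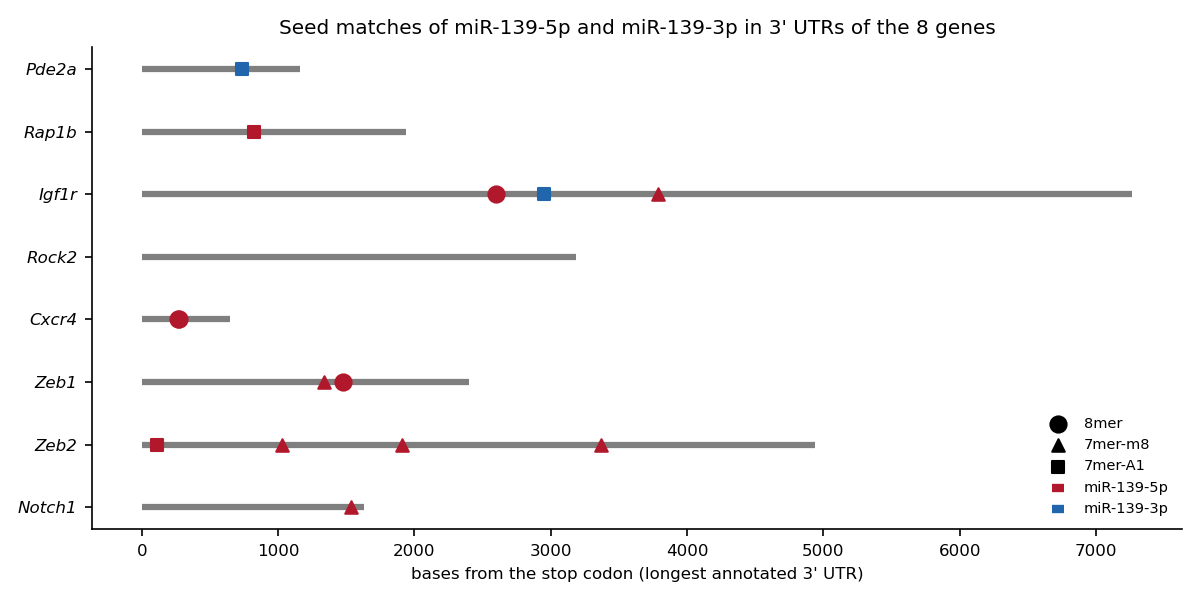
Seed matches along the longest annotated 3′ UTR of each gene (grey bar, in bases from the stop codon), for miR-139-5p (red) and miR-139-3p (blue), with the marker shape giving the kind of match. Zeb2 carries 4 miR-139-5p matches, the 2 8mers of Cxcr4 abut and appear as 1 marker, and Rock2 has 0.

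Counts assigned to genes came to 9.87 to 14.4 M (mega) in miR139-KD and 11.8 to 14.7 M in NTC, to 40.9 to 42.6 M in PUS10-OE and 34.2 to 47.3 M in Vector, and to 11.9 to 18.2 M in Pus10-KO and 14.5 to 16.5 M in Pus10-WT. All 10 HSC markers listed had reads in every group. Pus10 itself stood at 33.7 to 36.3 CPM in the libraries labelled Pus10-KO, against 19.6 to 33.8 CPM in Pus10-WT, so the gene count gives no lower level for the label, and at 242 to 285 CPM in PUS10-OE, against 53.6 to 92.8 CPM in Vector. Libraries of other lineage content stood apart. B and plasma cell markers (6 listed) summed to 104 to 113 CPM in Pus10-KO, with Cd79a at 0, against 19585 to 27761 CPM in all 3 Pus10-WT libraries, and to 147 to 15079 CPM in miR139-KD, against 825 to 16662 CPM in NTC.

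The host gene Pde2a had few reads in any library, and most of its exon bases are shared with another gene. Pde2a (ENSMUSG00000110195, chromosome 7, 101421691 to 101512827, plus strand) had 0, 0, 0, 13, 8 and 0 reads in miR139-KD replicates 1 to 6, against 7, 5, 2, 4, 0 and 21 reads in NTC replicates 1 to 6. It had 0 reads in all 3 PUS10-OE and all 3 Vector libraries, and 13, 0 and 0 reads in Pus10-KO, against 0, 0 and 2 in Pus10-WT. Reads were present in 2 of 6 miR139-KD and 5 of 6 NTC libraries, and the groups overlapped. An exact two-sided permutation test over the 924 arrangements of the knockdown libraries gave p = 0.491 (smallest possible 0.00216). The same test could not decide in the other 2 experiments. Every PUS10-OE and Vector value was 0, and only 1 Pus10-KO and 1 Pus10-WT library had reads.

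Of the 6149 exon bases of Pde2a in GENCODE M21, 3955, or 64.3%, are also exon of Gm45837 (ENSMUSG00000030653), a gene model on the same strand that starts upstream in Arap1 and reads through to the end of Pde2a. The counter the submitters name sets a read in exon bases of 2 genes aside as ambiguous in its default mode, although neither the mode they used nor their annotation release is given. Where reads were set aside in this way, the counts tell nothing of the shared bases. Both gene IDs are among those counted. Ambiguous reads made up 6.53% to 20.1% of entries per library. The map of the locus shows that the shared bases take in the last exon and nearly all the downstream ones, and that 2194 bases are Pde2a's alone, the larger part of them upstream of the miR-139 precursor. Over those bases Pde2a averaged 0.125 ± 0.207 CPM per kb in miR139-KD and 0.222 ± 0.255 in NTC, 0 in PUS10-OE and in Vector, and 0.162 ± 0.281 in Pus10-KO and 0.0215 ± 0.0372 in Pus10-WT, the lowest level of the 8 genes in every group. Gm45837 has 34 exon bases of its own and had 3 reads in all, in miR139-KD replicate 3.

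**Figure D2:**
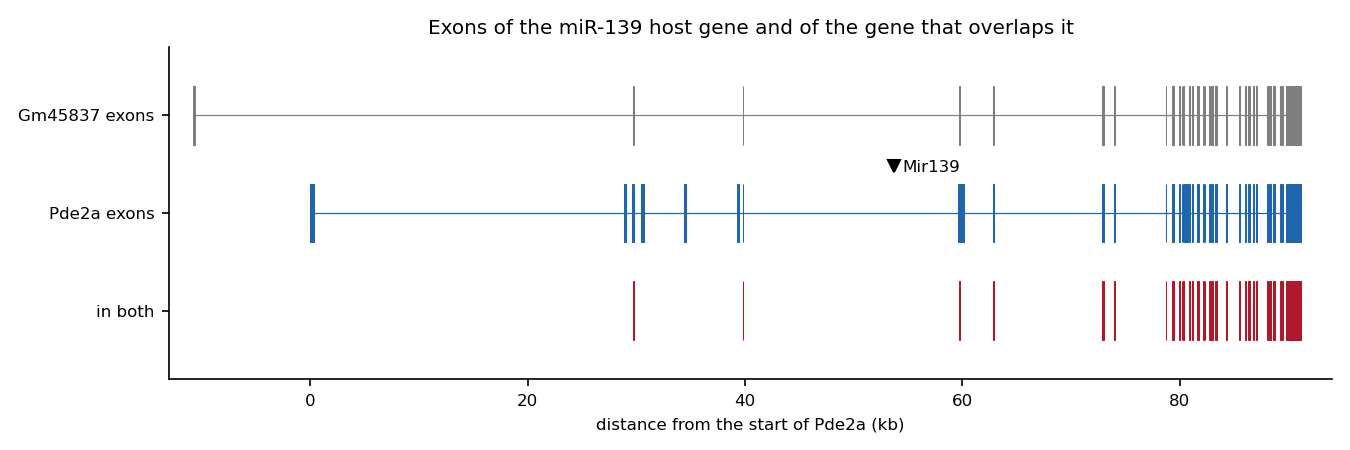
Annotated exons of Gm45837 (grey), Pde2a (blue) and the bases that are exon in both (red), by distance in kb from the start of Pde2a, with the miR-139 precursor (triangle). The precursor lies in a Pde2a intron, and the shared bases cover most exons downstream of it.

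The precursor Mir139 (chromosome 7, 101475376 to 101475443, 68 bases, plus strand) lies in a Pde2a intron that runs from 101461542 to 101481284 and overlaps no exon of the host. It had 0 reads in all 24 libraries. These are libraries of amplified cDNA that do not retain mature microRNAs, so the depth of the knockdown could not be read from them. Of the protein-coding neighbours, the Arf GTPase-activating protein Arap1 lies upstream of the host, with 9105 bases between them, and averaged 85.1 ± 19.2 CPM in miR139-KD and 56.1 ± 17.5 CPM in NTC (SD, n = 6 each), for a log2 difference of 0.60 (SE 0.217, edgeR adjusted p = 0.174). Gm45837 also shares 150 exon bases with Arap1. Art2b, 64143 bases downstream, averaged 0.787 ± 1.10 CPM in miR139-KD and 0.988 ± 2.15 CPM in NTC.

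Among the 7 reported targets, only Rap1b passed an adjusted p of 0.05 in miR139-KD against NTC, and it was higher. Under edgeR's quasi-likelihood test with Benjamini-Hochberg adjustment over all 13295 genes tested, 361 genes passed an adjusted p of 0.05 (2.72%), of which 187 were higher (1.41%) and 174 lower (1.31%). The remaining 6 targets did not pass. Before adjustment 4 of the 7 had a p under 0.05, Rap1b, Notch1, Zeb2 and Rock2, as did 16.04% of all genes. The fold change was positive for 6 of 7, with a median log2 fold change of 0.34, where all genes had a median of 0.017 and 51.4% positive. The levels below are TMM-normalised counts per M (CPM).

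Rap1b (ENSMUSG00000052681, chromosome 10, 117813871 to 117846035, minus strand) had 252, 383, 248, 273, 384 and 463 CPM in miR139-KD replicates 1 to 6, against 125, 134, 123, 121, 116 and 156 CPM in NTC replicates 1 to 6. Every knockdown library lay above every control library, which holds for 3.42% of all genes in either direction. The means were 334 ± 88.7 CPM in miR139-KD and 129 ± 14.5 CPM in NTC (SD, n = 6 each), a 2.58-fold difference (log2 1.37, SE 0.157, 95% interval 1.03 to 1.70, edgeR adjusted p = 4.92e-04). The knockdown libraries also spread more among themselves than the controls did. The call held in each of the 12 fits that left out 1 library (edgeR adjusted p 4.71e-04 to 0.00238), and when NTC replicate 6 and miR139-KD replicate 1, which correlated least with their groups, were both left out. No other annotated transcript of the reference matched Rap1b over 200 bases or more at 90% identity, and its exons overlap no other gene.

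Megakaryocyte markers were higher in the same libraries as Rap1b. The gene is abundant in platelets and their precursors, where it serves integrin activation. The summed level of the 6 megakaryocyte markers listed was 1112 to 2810 CPM in miR139-KD and 65.6 to 314 CPM in NTC, and 4 of the 5 tested were called higher: Pf4, Itga2b, Gp9 and Vwf. The 3 knockdown libraries with the highest Rap1b, replicates 2, 5 and 6, were those with the highest marker sums, 2552, 2134 and 2810 CPM. The other 3 had sums of 1447, 1112 and 1341 CPM. The NTC libraries did not follow that order: replicate 5 had the highest sum, 314 CPM, with the lowest Rap1b, 116 CPM, and replicate 1 the lowest sum, 65.6 CPM, with 125 CPM of Rap1b. Among 9208 genes, the patterns most like that of Rap1b over the 24 libraries, with log2 CPM centred within each experiment, were those of the platelet chemokine Pf4 (Pearson r = 0.888) and of the RNA-binding protein Hnrnpa0 (r = 0.885). The libraries of 1 group share their treatment and cell makeup, so these values describe likeness and carry no p. The part of the markers in the Rap1b result was not tested. In bulk libraries a change in the share of a cell type and a change in RNA per cell cannot be told apart.

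**Figure D3:**
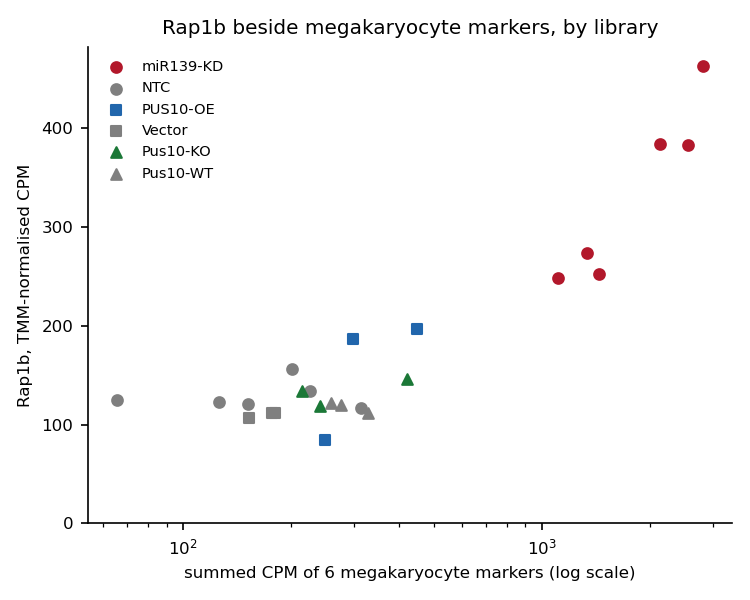
Rap1b (TMM-normalised CPM) against the summed CPM of 6 megakaryocyte markers (log scale), 1 point per library. The 6 miR139-KD libraries lie apart from all others on both axes, with at least 248 CPM of Rap1b and with at least 1112 CPM of markers.

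Notch1 (ENSMUSG00000026923, chromosome 2, 26457903 to 26516663, minus strand) had 1.20, 4.03, 2.60, 15.2, 2.58 and 9.93 CPM in miR139-KD replicates 1 to 6, against 20.9, 16.2, 29.4, 14.3, 22.4 and 40.8 CPM in NTC replicates 1 to 6. Of the 6 knockdown libraries 5 were below every control library, while replicate 4 lay among the controls. The means were 5.93 ± 5.48 CPM in miR139-KD and 24.01 ± 9.76 CPM in NTC (SD, n = 6 each), with a log2 fold change of -2.02 (SE 0.551, 95% interval -3.19 to -0.84) that missed the threshold (edgeR adjusted p = 0.0677). Without miR139-KD replicate 4 it was -2.55 with an edgeR adjusted p of 0.0244. DESeq2 called it at an adjusted p of 0.00459 and limma-voom at 0.0339. Its direction is the opposite of that of the other 6 targets.

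Part of Notch1's exons is shared, while 90.2% of its exon bases are its own. They overlap, on the opposite strand, 1068 exon bases of the transcript 0610009E02Rik (7.504% of Notch1's exon bases) and 414 of Gm13568, and the libraries do not mark the strand. Over all 24 libraries the count of 0610009E02Rik reached at most 86.8% of that of Notch1, in Pus10-WT replicate 3. That transcript averaged 2.32 ± 3.59 CPM in miR139-KD and 0.710 ± 0.760 CPM in NTC, which is 1.70 on the log2 scale (SE 1.53, edgeR adjusted p = 0.668). Its groups overlapped. It stood highest in miR139-KD replicate 4, with 111 reads (9.23 CPM), beside 183 reads of Notch1 there (15.2 CPM). That replicate is the knockdown library whose Notch1 level lay among the controls. In the counter's default mode a read in the shared bases enters neither count, but the mode used is not given. The part of 0610009E02Rik in the Notch1 count was not tested. Markers of several cell types also moved in this comparison. All 4 progenitor markers (Flt3, Cd34, Cd48 and Satb1) were called lower, with summed levels of 214 to 291 CPM in miR139-KD and 567 to 1023 CPM in NTC. The 7 T cell markers summed to 0.799 to 13.6 CPM in miR139-KD and 43.7 to 62.2 CPM in NTC, with Cd3e, Cd3g and Cd8a at 0 in both groups and Cd3d at 0 in miR139-KD. Lck, the 1 that was tested, was called lower. Of the 5 B and plasma cell markers tested Cd79a (log2 fold change -2.82, edgeR adjusted p = 0.0112) and Cd79b (-1.04, edgeR adjusted p = 0.0479) were called lower, and of the 10 HSC markers Gata2 (1.23, edgeR adjusted p = 0.00226) and Slamf1 (1.36, edgeR adjusted p = 0.0325) were called higher. The HSC markers summed to 910 to 1067 CPM in miR139-KD and 592 to 924 CPM in NTC. Lists with 0 calls varied widely. Erythroid markers summed to 1020 to 9544 CPM in miR139-KD and 648 to 11502.5 CPM in NTC. Granulocyte and monocyte markers summed to 930 to 11947 CPM in miR139-KD and 1484 to 10486 CPM in NTC. Mast cell and basophil markers reached 714 CPM in miR139-KD replicate 6 and at most 71.5 CPM in NTC. The part of these markers in the Notch1 values was not tested.

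Zeb2 (ENSMUSG00000026872, chromosome 2, 44983632 to 45117395, minus strand) ranged from 53.8 to 71.1 CPM with a median of 61.6 in miR139-KD, against 31.9 to 59.4 CPM with a median of 38.7 in NTC. Of the knockdown libraries 4 were above every control, and the groups overlapped only through NTC replicate 2. The log2 fold change was 0.55 (SE 0.170, 95% interval 0.19 to 0.92), which did not pass after adjustment (edgeR adjusted p = 0.107). Zeb1 (ENSMUSG00000024238, chromosome 18, 5591860 to 5775467, plus strand), with an 8mer in its UTR, ranged from 26.1 to 66.5 CPM with a median of 41.5 in miR139-KD, against 29.4 to 61.7 CPM with a median of 34.9 in NTC. The Zeb1 groups overlapped over nearly their whole range, at a log2 value of 0.16 (SE 0.274, 95% interval -0.43 to 0.75), with an edgeR adjusted p of 0.855. That interval leaves room for a rise of 1.68-fold.

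Rock2 (ENSMUSG00000020580, chromosome 12, 16894895 to 16987823, plus strand) ranged from 79.2 to 143 CPM with a median of 110 in miR139-KD, against 75.6 to 96.0 CPM with a median of 89.8 in NTC. Igf1r (ENSMUSG00000005533, chromosome 7, 67952827 to 68233668, plus strand) ranged from 70.2 to 124 CPM with a median of 103 in miR139-KD, against 55.2 to 99.5 CPM with a median of 78.7 in NTC. In both genes 4 of 6 knockdown libraries were above every control, and neither passed. The log2 fold change was 0.33 for Rock2 (SE 0.144, 95% interval 0.024 to 0.64, edgeR adjusted p = 0.273) and 0.34 for Igf1r (SE 0.185, 95% interval -0.058 to 0.73, edgeR adjusted p = 0.405). A transcript similar to part of Rock2, A230072E10Rik (90.1% identity over 201 bases), had at most 4.21% of Rock2's count.

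Cxcr4 (ENSMUSG00000045382, chromosome 1, 128588199 to 128592293, minus strand) was low, with 40 to 115 reads in miR139-KD and 14 to 86 reads in NTC. That is 3.32 to 9.36 CPM with a median of 4.11 in miR139-KD, against 0.954 to 6.37 CPM with a median of 2.83 in NTC. The groups overlapped and the interval was wide, a log2 fold change of 0.63 with 95% limits of -0.65 and 1.91 (SE 0.598, edgeR adjusted p = 0.692). As a ratio of miR139-KD to NTC the interval runs from 0.637 to 3.75.

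**Figure D4:**
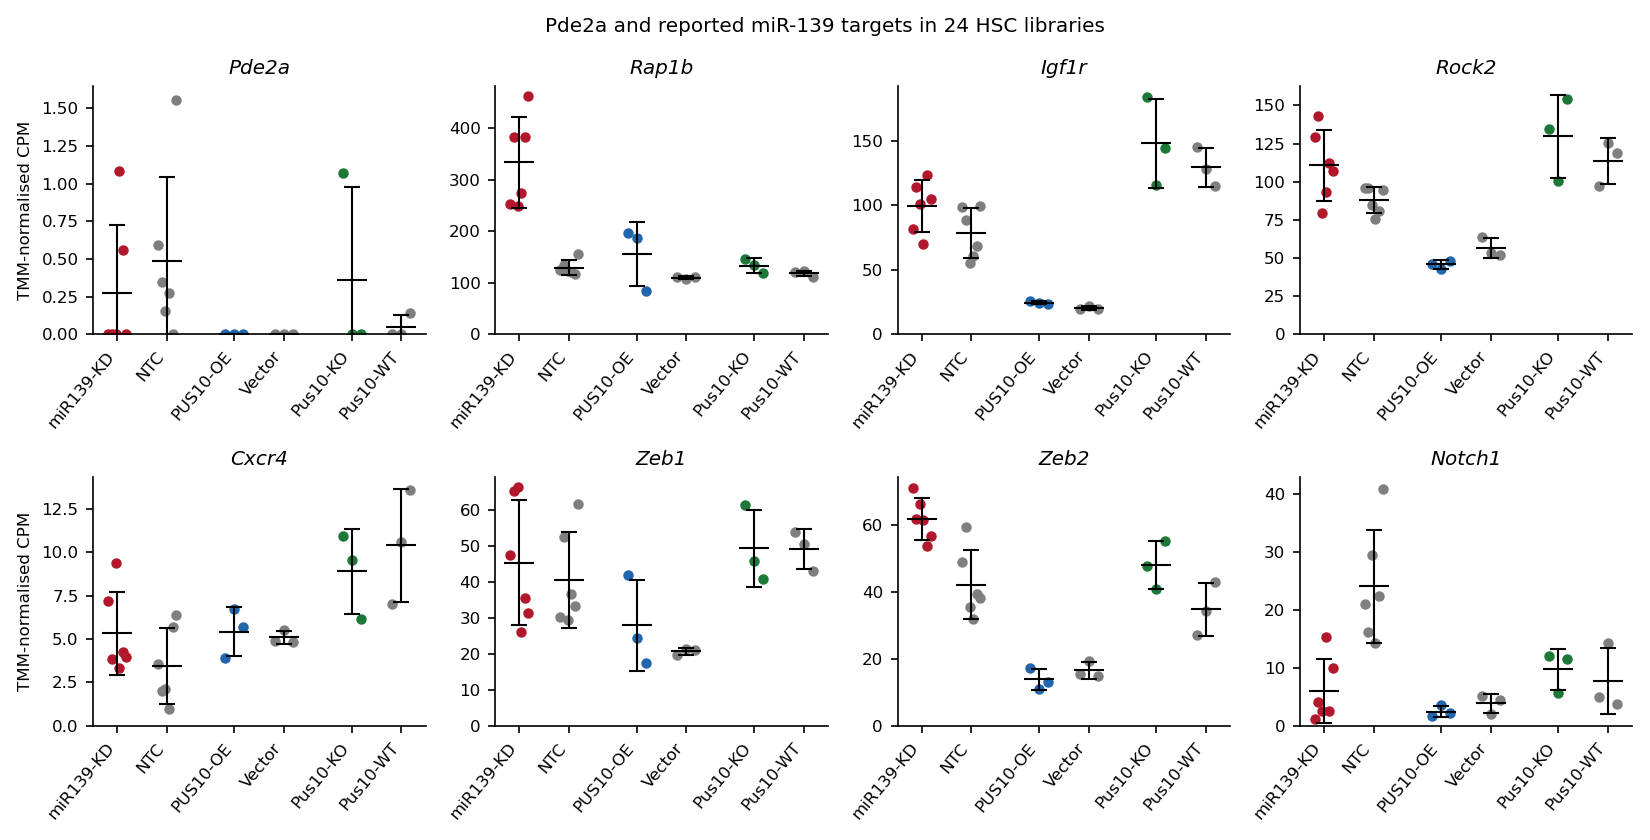
TMM-normalised CPM of the 8 genes in each of 24 libraries (points), with the group mean and SD (bars), for the 3 experiments side by side; the panels have different scales. The miR139-KD libraries of Rap1b lie above all 6 NTC libraries, and 5 of 6 miR139-KD libraries of Notch1 lie below them.

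The estimated fold changes did not follow the number or kind of miR-139-5p matches. The 95% intervals of Cxcr4, Zeb2, Igf1r, Zeb1 and Rock2 overlap each other, and a relation to the sites was not tested. Rap1b, at a log2 fold change of 1.37, holds a single 7mer-A1, while Cxcr4 with a pair of 8mers was at 0.63, Zeb2 with 4 sites at 0.55, Igf1r with 2 at 0.34 and Zeb1 with 2 at 0.16. Rock2, without a site in its longest UTR, was at 0.33, and Notch1 with a 7mer-m8 at -2.02. In miR139-KD against NTC, the 2567 tested genes with a 7mer or 8mer for miR-139-5p had a median log2 fold change of 0.036. The median was 0.018 for all tested genes with a 3′ UTR. Of the 2567, 36 were called higher and 36 lower. For the 495 with an 8mer the median was 0.051, with 9 called higher and 10 lower. Genes with a 7mer or 8mer for miR-139-3p had a median of 0.048 in the same comparison. In Pus10-KO against Pus10-WT the miR-139-5p 8mer genes had a median of 0.057, beside -0.00073 for all tested genes with a 3′ UTR. In PUS10-OE against Vector the median of the 8mer genes was -0.0044, beside -0.0089 for all tested genes with a 3′ UTR. None of these medians was tested.

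Of the close relatives looked up, Rap1a, Insr, Igf2r, Rock1 and Notch2 were tested in miR139-KD against NTC, and none passed. Notch3 and Notch4 did not enter the fit. Another Rap GTPase, Rap2a, did pass and is given below with its pathway list. Rap1a, the paralog of Rap1b, averaged 57.7 ± 10.8 CPM in miR139-KD and 70.4 ± 6.32 CPM in NTC (SD, n = 6 each), a fold change that came to -0.29 on the log2 scale (SE 0.146, edgeR adjusted p = 0.358). Its 95% interval, -0.60 to 0.024, lies wholly below that of Rap1b; the difference between the paralogs was not tested. Rock1 was at 0.21 (SE 0.120) and Notch2, another Notch receptor, at 0.34 (SE 0.221). The insulin receptor Insr was at 0.81 (SE 0.314, edgeR adjusted p = 0.209), with 24.7 ± 8.12 CPM in miR139-KD and 14.1 ± 4.32 CPM in NTC. Igf2r was at -0.034 (SE 0.631). Ackr3, the other receptor for Cxcl12, had 0 reads in all 24 libraries.

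Beside the targets, 153 genes of their pathways were listed, 152 of them with a single ID. Of the 115 tested 6 passed (5.22%, beside 2.72% of all genes), 4 higher and 2 lower. The lists were chosen with earlier results of these data known, so these shares are no independent test. In Rap GTPase signalling (19 tested, 15 positive, median log2 fold change 0.25) the GTPase Rap2a was called, with 22.4 ± 7.15 CPM in miR139-KD and 9.21 ± 3.13 CPM in NTC (1.28, SE 0.316, edgeR adjusted p = 0.0449). In IGF and insulin signalling (15 tested, 8 positive, median 0.12) the adaptor Grb10, an inhibitor of insulin and IGF receptor signalling, had 49.4 ± 12.6 CPM in miR139-KD and 19.2 ± 11.2 CPM in NTC (1.36, SE 0.343, edgeR adjusted p = 0.0487). The list around Rock2 (18 tested, 10 positive, median 0.12) had calls in opposite directions. The guanine nucleotide exchange factor Arhgef12, which activates RhoA, had 41.2 ± 15.3 CPM in miR139-KD and 17.4 ± 5.86 CPM in NTC (1.24, SE 0.306, edgeR adjusted p = 0.0449). Rhoa itself, the GTPase that activates Rock kinases, had 107 ± 14.2 CPM in miR139-KD and 151 ± 13.5 CPM in NTC (-0.50, SE 0.1097, edgeR adjusted p = 0.0273).

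The CXCR4 list (17 tested, 7 positive, median -0.12) also split. Gnai2, an inhibitory G protein subunit that Cxcr4 signals through, had 563 ± 44.9 CPM in miR139-KD and 402 ± 63.3 CPM in NTC (0.49, SE 0.106, edgeR adjusted p = 0.0261). The protease Dpp4, which cleaves Cxcl12, had 7.34 ± 5.16 CPM in miR139-KD and 32.5 ± 12.2 CPM in NTC (-2.14, SE 0.493, edgeR adjusted p = 0.0325). In the Notch list (21 tested, median -0.0071), the phosphodiesterases (12 tested, median -0.13), the Zeb partners (3 tested, median 0.094) and 10 further reported miR-139 targets (5 positive, median -0.072) the count of calls was 0, with 1, 2, 1 and 2 genes at an unadjusted p under 0.05.

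These 6 pathway calls were less firm than that of Rap1b. Leaving out single libraries, Gnai2 lost its call in 4 of 12 fits (without NTC replicate 2 or 3, or miR139-KD replicate 1 or 2) and Rhoa in 6 of 12 (without NTC replicate 3, 5 or 6, or miR139-KD replicate 1, 3 or 6), with adjusted p up to 0.0594 and 0.0628. Rap2a kept its call only without NTC replicate 6 or miR139-KD replicate 2, Arhgef12 only without NTC replicate 5 or miR139-KD replicate 3, Dpp4 only without NTC replicate 4 or miR139-KD replicate 5, and Grb10 only without NTC replicate 5. Their highest adjusted p in these fits were 0.0949, 0.0950, 0.0769 and 0.101. The direction of all 6 was the same in every such fit. With all libraries, groups did not overlap for Rap2a, Rhoa and Gnai2, as for 3.42% of all genes. They overlapped for Grb10, Arhgef12 and Dpp4.

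In PUS10-OE against Vector 0 of the 7 targets in the fit passed edgeR, as did 0 of 14834 genes (0%). Of these genes 1215 had an unadjusted p under 0.05, none of the 7 among them. DESeq2 called 177 genes but 0 of the targets. Even the overexpressed gene, Pus10, missed the edgeR threshold (adjusted p = 0.278). Its fitted level was 3.39 times that in Vector, and its groups did not overlap. A lack of calls in this fit is therefore no evidence that a gene stayed level. Rap1b had 197, 187 and 83.9 CPM in PUS10-OE, against 112, 107 and 112 CPM in Vector. The third overexpression library lay below all controls and the other 2 above them, at a log2 value of 0.50 (SE 0.283, 95% interval -0.15 to 1.16), with an edgeR adjusted p of 0.741. Without PUS10-OE replicate 3 it was 0.79 (edgeR adjusted p = 0.293). In the same order the megakaryocyte marker sums were 449, 299 and 249 CPM in PUS10-OE, against 180, 153 and 177 CPM in Vector.

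The groups of PUS10-OE and Vector did not overlap in 2 of the 7, Igf1r and Rock2, as in 15.1% of all genes. Igf1r had 25.7, 23.96 and 23.4 CPM in PUS10-OE, against 19.5, 21.8 and 19.9 CPM in Vector (log2 fold change 0.26, SE 0.163, edgeR adjusted p = 0.780). Rock2 had 45.8, 43.0 and 48.3 CPM in PUS10-OE, against 63.8, 53.0 and 52.2 CPM in Vector (-0.30, SE 0.135, edgeR adjusted p = 0.626). These 2 ran in opposite directions, each with an interval that includes 0. Zeb1 had 42.0, 24.4 and 17.3 CPM in PUS10-OE, against 19.6, 21.5 and 20.9 CPM in Vector (0.43, SE 0.308). It stood highest in PUS10-OE replicate 1, without which the log2 fold change was 0.013. Zeb2 was at -0.26 (SE 0.238), Notch1 at -0.68 (SE 0.509) and Cxcr4 at 0.093 (SE 0.318), with groups that overlapped. Cxcr4 was at -0.093 without PUS10-OE replicate 2. Of 121 pathway genes tested 0 passed.

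In the libraries labelled Pus10-KO against Pus10-WT 0 of the 7 targets passed, beside 9 of 14657 genes (0.0614%), 2 of them higher (0.0136%) and 7 lower (0.0478%), and DESeq2 called 146 genes but 0 of the targets. The fold change was positive for 6 of 7 with a median log2 fold change of 0.19 (all genes -0.0034, 49.7% positive), and 0 of 7 had groups that did not overlap, beside 13.7% of all genes. Rap1b had 146, 134 and 119 CPM in Pus10-KO, against 120, 122 and 111 CPM in Pus10-WT, 0.17 on the log2 scale (SE 0.136, 95% interval -0.14 to 0.49), with an edgeR adjusted p of 0.932. Zeb2 had 47.7, 40.8 and 55.3 CPM in Pus10-KO, against 27.2, 34.2 and 43.0 CPM in Pus10-WT (0.46, SE 0.254, edgeR adjusted p = 0.841). The Zeb2 groups overlapped through 1 library of each.

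Igf1r had 184, 116 and 144 CPM in Pus10-KO, against 145, 128 and 115 CPM in Pus10-WT (0.19, SE 0.193), and Rock2 had 135, 101 and 154 CPM in Pus10-KO, against 96.8, 125 and 119 CPM in Pus10-WT (0.19, SE 0.194). Zeb1 was level at 49.3 ± 10.8 CPM in Pus10-KO and 49.1 ± 5.50 CPM in Pus10-WT (SD, n = 3 each), with a 95% interval from -0.53 to 0.54, and its sign turned in 4 alternatives. Notch1 had 12.1, 5.67 and 11.5 CPM in Pus10-KO, against 4.98, 14.2 and 3.75 CPM in Pus10-WT (0.35, SE 0.666), and Cxcr4 was at -0.23 (SE 0.488). The groups overlapped in each of these genes. The B and plasma cell markers given above separate the libraries labelled Pus10-KO from Pus10-WT, and their part in these values was not tested. Cxcr4 was at 0.011 without Pus10-WT replicate 3. Of 122 pathway genes tested 0 passed.

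**Figure D5:**
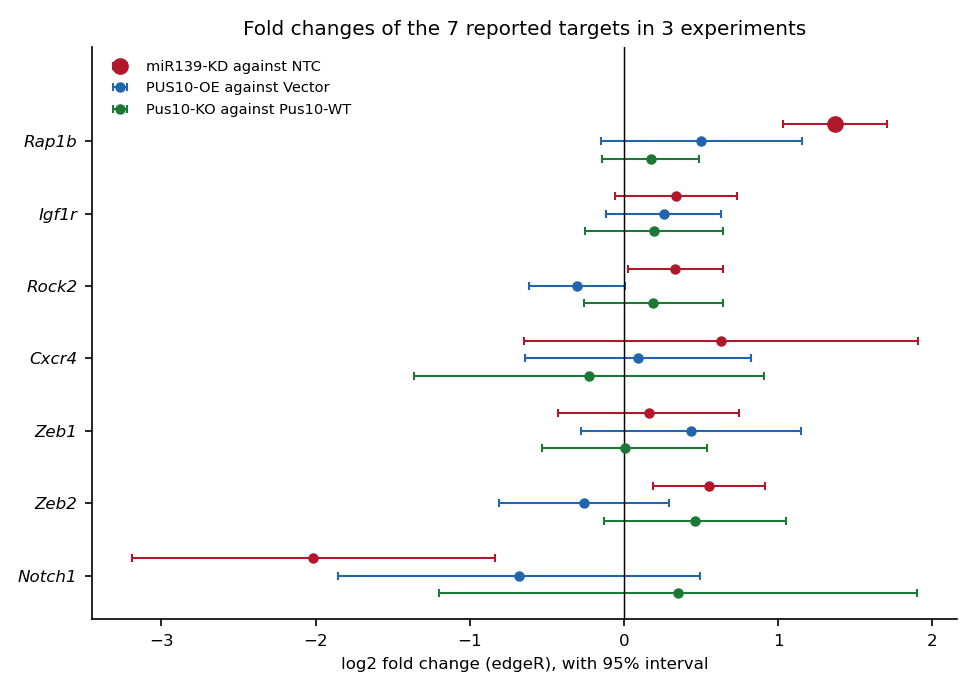
Log2 fold changes from edgeR with 95% intervals for the 7 reported targets in each of the 3 comparisons, the first-named group over the second. The large point marks the 1 value with an adjusted p under 0.05, Rap1b in miR139-KD against NTC at 1.37; the interval of Notch1 in the same comparison runs from -3.19 to -0.84.

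Per kb of unshared exon, Rap1b had the highest level of the 8 genes in all 6 groups and did not overlap the next, with 116 ± 30.7 CPM per kb in miR139-KD and 44.8 ± 5.02 in NTC, 54.0 ± 21.6 in PUS10-OE and 38.1 ± 0.984 in Vector, and 46.2 ± 4.84 in Pus10-KO and 40.9 ± 1.96 in Pus10-WT. Rock2 followed in every group, at 3.29 to 9.34 CPM per kb by group mean, but overlapped the gene after it in all groups except Vector. Igf1r came next in miR139-KD, NTC, Pus10-KO and Pus10-WT and below Cxcr4 and Zeb1 in PUS10-OE and Vector. Notch1 stood just above Pde2a throughout, at 0.462 ± 0.427 CPM per kb in miR139-KD and 1.87 ± 0.760 in NTC. In miR139-KD it lay below Cxcr4 without overlap, whereas in NTC the ranges of Cxcr4 and Notch1 overlapped.

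Across groups, the level of Rap1b in miR139-KD lay above that of all other groups without overlap, and the other 5 overlapped their neighbours in order, from 156 CPM in PUS10-OE to 110 CPM in Vector by mean. Notch1 was highest in NTC, whose range did not overlap the next, Pus10-KO. Igf1r, Rock2 and Zeb2 were lowest in PUS10-OE and Vector, below all libraries of the other 4 groups. The experiments were normalised separately and differ in depth, so these orders were not tested.

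For the other targets with a mean log2 CPM of at least 3, the most similar patterns over the 24 libraries were those of Cep41 (r = 0.760) and Scml4 (0.756) for Igf1r, Galnt6 (0.790) and the stem cell factor receptor Kit (0.726) for Rock2, Kmt5b (0.724) and Gne (0.682) for Zeb1, and the transcription factor Etv6 (0.789) and Shkbp1 (0.757) for Zeb2. Of these Etv6 was called in miR139-KD against NTC, with 218 ± 38.1 CPM in miR139-KD and 131 ± 23.5 CPM in NTC (log2 fold change 0.74, SE 0.141, edgeR adjusted p = 0.0122). Hnrnpa0, which resembled Rap1b, had 155 ± 23.4 CPM in miR139-KD and 87.1 ± 12.9 CPM in NTC (0.83, SE 0.132, edgeR adjusted p = 0.00339).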

How the data were processed

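Sorted cells were lysed and copied by Smart-seq2, which makes full-length cDNA that is amplified and cut by Tn5 transposase without marking the strand, per the labels' protocols. The authors deposited whole-number counts of reads per Ensembl gene ID, not normalised. HISAT2 2.1.0, HTSeq 0.11.2, DESeq2 and mm10 are named in the submitters' processing notes. The annotation release and the counting mode are not given in the sources used here. The 5 summary entries stayed out of all totals; reads of no feature made up 3.70% to 12.0% of entries and ambiguous reads 6.53% to 20.1%.

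GENCODE M21 (GRCm38, the same assembly as mm10) gave symbols to 55394 of 55487 IDs, and exons and 3′ UTRs. The 2 groups of each experiment were modelled apart from the others in edgeR (4.0.16, R 4.3.3; filterByExpr, TMM, robust quasi-likelihood F test, two-sided, Benjamini-Hochberg over all genes tested, threshold 0.05). Standard errors come from the log2 fold change and F. The filter removed Pde2a, which was tested by exact permutation instead. A count of 0 allows up to 3 reads, or 0.0635 to 0.304 CPM by library; this limit covers counting error only, as reads carry no molecular identifiers, while the 95% intervals of fold changes come from the fits and reflect the spread between libraries.

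Members and gene lists were chosen with earlier results of these data known. Named genes are the 8 members, the pathway genes called in any comparison (up to 3 per list and comparison), the 2 genes most like each member with a mean log2 CPM of at least 3, and the neighbours of Pde2a; close relatives, overlapping genes and called markers were named beside these after their values were seen. The fits were repeated with DESeq2 (1.42.0), with limma-voom and quality weights (3.58.1), with RLE or library size scaling, without a filter or with one of 10 CPM, with replicate number as a blocking term, with all 6 groups together, without each library, and without the 2 least correlated libraries of the knockdown experiment. The fits were tested on simulated counts. Figures were drawn with matplotlib 3.10.9.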

Additional observations from a re-analysis of the deposited data

How the results depend on the processing

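Of 338 alternative values of the 21 target results, 327 kept their direction and their side of the threshold, 5 passed it and 6 turned sign. Rap1b in miR139-KD against NTC passed in all 21 alternatives (log2 fold change 1.255 to 1.503, highest adjusted p 0.00635). The 5 that passed were Notch1 in the same comparison, so that 2 targets were called with DESeq2, limma-voom, a filter of 10 CPM, all 6 groups in 1 fit, and without miR139-KD replicate 4 (range over single libraries left out 1 to 2). Turned signs were those of Cxcr4 for PUS10-OE (-0.093 without PUS10-OE replicate 2, range over single libraries left out -0.093 to 0.28), Cxcr4 for Pus10-KO (0.011 without Pus10-WT replicate 3, range -0.44 to 0.011) and Zeb1 for Pus10-KO (-0.041 with limma-voom, -0.010 with the replicate block, -0.084 without Pus10-WT replicate 3 and -0.18 without Pus10-KO replicate 1, range -0.18 to 0.13). Counts of genes called moved more. For miR139-KD against NTC they were 797 with DESeq2, 792 with all 6 groups in 1 fit, 212 without NTC replicate 6 and miR139-KD replicate 1, and 196 to 340 with single libraries left out. For PUS10-OE against Vector they were 177 with DESeq2, 9 with the 10 CPM filter and 5 with all groups in 1 fit, and 0 with any library left out. For Pus10-KO against Pus10-WT they were 146 with DESeq2, 15 with all groups in 1 fit, 3 with limma-voom, and 0 to 10 with single libraries left out. The causes were not tested. Pathway genes called for miR139-KD were 0 to 5 with single libraries left out (0 without NTC replicate 3), 15 with DESeq2, 12 with all groups in 1 fit, 10 with the 10 CPM filter, 2 without a filter, 3 with the replicate block and 1 without both least correlated libraries; DESeq2 called 4 for PUS10-OE and 3 for Pus10-KO. Same-numbered libraries did not deviate together over the genes in the fit (correlations -0.0196 to 0.0197). That gives no sign of pairing but cannot exclude a shared animal or batch. With the replicate block 188 genes were called for miR139-KD and 2 for Pus10-KO, and no target changed its call. Reads per library were fewest for Pde2a (0 to 21), Cxcr4 (14 to 272) and Notch1 (12 to 550).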
